A study of Mus musculus with 2 samples.

Results

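The cell cycle genes described here were 37 transcripts taken by symbol from the 32285 genes of the count matrices, and every one of the 37 was present. They comprised 13 S phase genes, 21 genes of G2 and mitosis (G2/M), and 3 genes assigned to neither phase (Stmn1, Hmgb2 and Tubb5). Cells in which at least 4 of these genes were detected, meaning at least 1 unique molecular identifier (UMI, a tag that counts original RNA molecules) each, formed the class that was examined. The class held 1203 of 2505 cells in the WT library and 4030 of 6634 cells in the KO-labelled library. The class therefore went against the name of dividing cells, since 84.6% and 87.3% of its cells carried no UMI of any of the 20 members that were detected in fewer than 2% of cells, among them Mki67, the cyclins and Cdk1. It is called by its rule in what follows.

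A dividing cell copies its genome in S phase, when the MCM helicase opens the DNA, the Pcna clamp holds the polymerases in place and the enzymes of nucleotide synthesis are made. In G2 and mitosis, cyclins with Cdk1, the Aurora and Polo kinases, kinesins and condensins assemble the spindle and pack the chromosomes. γδ T cells of the lung are long-lived tissue lymphocytes, of which those with a Vγ4 or Vγ6 chain are known for IL-17 and many of those with a Vγ1 chain for interferon-γ and cytotoxic genes.

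The study asked what the Vγ1 T cells of the lung are like in mice that lack Vγ4 and Vγ6 T cells. The WT library held Vγ1- γδ T cells sorted from lungs of C57BL/6NCrl mice, and the KO-labelled library held Vγ1+ γδ T cells sorted from lungs of Vγ4-/-/Vγ6-/- mice, whose strain is given as B6.Cg-Tcrgtm1lku(B6.Vg4-/-Vg6-/-). Both groups were uninfected mice of 5 to 7 weeks, and the number of animals behind each library was not given in the sources used here. With 1 library per group, no difference between the libraries could be tested, and sorted subset, genotype, strain and library preparation differed together and cannot be told apart.

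The labels were checked before any result. Tcrg-V6 had 2906 UMIs in the WT library and none in the KO-labelled library, where a count of 0 allows a share of up to 0.0556% of cells, and Tcrg-V1 was detected in 7.82% of WT against 43.4% of KO-labelled cells. Tcrg-V4, however, had 1291 UMIs in the KO-labelled library, in 14.9% of its cells, against 21.4% of WT cells. The study states that its KO cells of the IL-17 clusters lacked Tcrg-V4 expression. These UMIs alone do not tell whether a Vγ4 chain was made, and so do not settle the genotype. That library is therefore called KO-labelled throughout. Cells with at least 3 myeloid or B cell markers, which should lack the gene, held Tcrg-V4 in 13.6% of 66 KO-labelled and 13% of 92 WT cells, at median depths of 4564.5 and 3841.5 UMIs against 3519.5 and 3273 in the unmarked cells. Many of the marked cells also carried T cell transcripts, Cd3e being found in 48.5% and 31.5% of them. Cd3e itself was detected in 83.7% of all WT and 89.2% of all KO-labelled cells. The libraries held 9173997 and 26436826 UMIs, with a median of 3288 and 3521 per cell, and 23 cell barcodes occurred in both. Intervals given below are 95% intervals and cover counting error only.

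To show what sequence the cell cycle genes share beside their transcripts, the 250 bases upstream of the start site of 6 members are printed from RefSeq (build GRCm38.p6), in which 31 of the 37 members had a promoter entry. Aurkb, Ccna2, Mcm4, Smc4, Stmn1 and Tpx2 had none. Mcm6, Pcna, Cenpa and Smc2 were the S and G2/M members with an entry that were detected in the largest numbers of cells of the class (2019, 1816, 2867 and 747 cells over both libraries), and Pclaf and Mki67 were added as the rare members found in most of the cells with at least 4 rare members (37 and 35 cells). Capitals mark matches, on either strand, to E2F sites (searched as TTGGCGC or TTCCCGC or TTGGCGG or TTCGCGC), to the cell cycle homology region, CHR (TTTGAA and TTCGAA), and to the NF-Y box (CCAAT), and overlapping matches run together.
Mcm6, chr1:128359706-128359955, minus strand: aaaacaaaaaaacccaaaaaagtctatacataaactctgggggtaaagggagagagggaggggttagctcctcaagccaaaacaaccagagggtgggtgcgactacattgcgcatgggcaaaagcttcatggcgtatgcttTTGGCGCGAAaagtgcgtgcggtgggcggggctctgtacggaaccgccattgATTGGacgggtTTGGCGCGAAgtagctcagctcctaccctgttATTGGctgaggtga
Pcna, chr2:132253181-132253430, minus strand: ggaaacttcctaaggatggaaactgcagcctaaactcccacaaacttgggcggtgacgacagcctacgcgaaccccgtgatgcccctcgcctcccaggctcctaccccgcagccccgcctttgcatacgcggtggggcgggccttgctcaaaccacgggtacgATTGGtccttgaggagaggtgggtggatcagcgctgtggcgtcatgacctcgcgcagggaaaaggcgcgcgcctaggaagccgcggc
Pclaf, chr9:65890073-65890322, plus strand: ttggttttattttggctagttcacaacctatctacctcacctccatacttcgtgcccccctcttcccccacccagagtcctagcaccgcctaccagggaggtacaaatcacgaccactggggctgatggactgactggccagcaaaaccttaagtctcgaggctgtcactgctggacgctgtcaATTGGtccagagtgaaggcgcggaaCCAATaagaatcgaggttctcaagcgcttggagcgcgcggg
Cenpa, chr5:30666636-30666885, plus strand: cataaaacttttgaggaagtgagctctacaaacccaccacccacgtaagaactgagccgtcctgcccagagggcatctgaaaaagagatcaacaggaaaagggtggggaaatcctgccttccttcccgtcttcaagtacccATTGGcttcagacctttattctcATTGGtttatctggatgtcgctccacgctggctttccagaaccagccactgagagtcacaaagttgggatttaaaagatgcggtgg
Smc2, chr4:52438971-52439220, plus strand: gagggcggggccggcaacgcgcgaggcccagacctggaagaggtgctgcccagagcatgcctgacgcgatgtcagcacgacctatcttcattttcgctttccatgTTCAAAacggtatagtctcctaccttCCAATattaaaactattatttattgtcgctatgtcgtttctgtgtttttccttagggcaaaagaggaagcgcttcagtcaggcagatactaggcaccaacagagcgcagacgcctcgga
Mki67, chr7:135716380-135716629, minus strand: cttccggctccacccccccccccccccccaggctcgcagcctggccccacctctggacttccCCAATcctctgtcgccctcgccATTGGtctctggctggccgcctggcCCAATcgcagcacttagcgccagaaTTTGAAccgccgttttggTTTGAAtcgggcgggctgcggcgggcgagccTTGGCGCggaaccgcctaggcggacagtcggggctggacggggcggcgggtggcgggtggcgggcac

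Mcm6 held 2 stretches in which TTGGCGC and the reverse complement of TTCGCGC overlapped, starting 109 and 46 bases before the start site, and 2 NF-Y boxes. Mki67 held 3 NF-Y boxes, 2 CHR matches and 1 E2F match, while Pcna held 1 NF-Y box only. Over the members with an entry, an E2F match was present in 4 of 12 S genes and 3 of 17 G2/M genes, against 9.68% of 27025 genes with a promoter entry. A CHR match was present in 2 of 12 S genes and 8 of 17 G2/M genes, against 19.6% of all genes. The NF-Y box was present in 9 of 12 S genes and 15 of 17 G2/M genes, against 37.5% of all genes. These matches describe letters in the window and are not binding sites.

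The members ranged from genes found in many cells to genes found in very few, and both ends of that range are named here as groups. The 7 broad members were detected in at least 20% of the cells of a library: Mcm4, Mcm6 and Pcna of S phase, Cenpa and Smc4 of G2/M, and Hmgb2 and Tubb5. The 20 rare members, detected in fewer than 2% of cells in both libraries, were 3 S genes (Pclaf, Rrm2 and Tk1) and 17 G2/M genes. The other 10 members lay between these limits. Near the upper limit, Mcm6 at 20.3% of WT cells was inside and Rrm1 at 18.5% was outside. Near the lower limit, Rrm2 at 1.92% of WT cells was inside and Tyms at 3.23% was outside.

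Among the S genes, the MCM helicase subunits were detected throughout both libraries. Mcm6 had 75.3 CPM (UMIs of the gene per 1000000 UMIs of the library's kept cells) in WT and 104 CPM in KO-labelled cells, a log2 ratio of KO-labelled over WT of 0.46 (0.34 to 0.59). Mcm4 stood at 96.6 and 109 CPM, a log2 ratio of 0.18 (0.07 to 0.29). Mcm2 (0.04 to 0.51) and Mcm7 (0.08 to 0.47) both had log2 ratios of 0.27, while the intervals of Mcm3 (-0.23 to 0.10) and Mcm5 (-0.16 to 0.26) included 0. All members of the helicase whose interval excluded 0 were thus higher in the KO-labelled library.

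The nucleotide synthesis genes lay the other way. Rrm1, the large subunit of ribonucleotide reductase, had 79.0 CPM in WT and 47.4 CPM in KO-labelled cells, a log2 ratio of -0.74 (-0.87 to -0.60). Rrm2, its small subunit, stood at 10.7 and 8.11 CPM, with a ratio of -0.40 on the log2 scale (-0.76 to -0.04). Up to 18 of the Rrm2 UMIs lay in 1 WT cell. Rrm2 was found in 1.92% (1.42 to 2.53) of WT and 1.73% (1.43 to 2.08) of KO-labelled cells, with overlapping intervals. Tyms, thymidylate synthase, was at 11.8 and 8.61 CPM, with a ratio of -0.46 on the log2 scale (-0.80 to -0.11). Dut, which removes dUTP, stood at 45.0 and 44.0 CPM, and Tk1, thymidine kinase, had only 24 and 55 UMIs, so no difference was detectable for either. Pcna, the sliding clamp, had 103 CPM in WT and 79.9 CPM in KO-labelled cells, a log2 ratio of -0.37 (-0.48 to -0.25). Pclaf, a Pcna partner, had 13 and 13.3 CPM, and its UMIs sat in only 17 and 64 cells, with up to 36 UMIs in 1 cell.

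Smc4, a condensin subunit, had the highest positive ratio of all members tested. It was found at 293 CPM in WT and 532 CPM in KO-labelled cells, a log2 ratio of 0.86 (0.80 to 0.92), and at equal depth in 28.9% (27.0 to 30.9) of WT and 50.8% (49.5 to 52.1) of KO-labelled cells. Smc2, its partner in the same complex, stood at 34.1 and 31.1 CPM, a log2 ratio of -0.13 (-0.32 to 0.06), so the 2 subunits were not shifted alike. Cenpa, the centromeric histone H3 variant, stood at 191 and 184 CPM, a log2 ratio of -0.05 (-0.13 to 0.03). Top2a, the topoisomerase that untangles chromosomes, was found in 5.15% of WT cells, in 4.72% of KO-labelled cells, with a log2 ratio of -0.12 (-0.38 to 0.14).

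The other G2/M members were close to the detection limit. Mki67, a marker of cycling cells that coats mitotic chromosomes (chr7:135689784-135716361), had 83 UMIs in 36 WT cells and 136 UMIs in 69 KO-labelled cells, a log2 ratio of -0.82 (-1.22 to -0.41). Cdk1, the mitotic kinase, had 19 and 31 UMIs, and the cyclin genes Ccna2, Ccnb1 and Ccnb2 had 25, 3 and 22 UMIs in WT and 51, 11 and 44 UMIs in KO-labelled cells. Plk1, Aurkb and Bub1, kinases of mitosis and its checkpoint, stayed at or below 15 UMIs in each library. Of these 17 rare G2/M members, Mki67 and the spindle factor Tpx2 (-0.78, -1.53 to -0.01) had an interval that excluded 0, both lower in the KO-labelled library. These intervals treat the UMIs of 1 cell as independent, and Mki67 had up to 11 UMIs in 1 WT cell. As shares of cells, Mki67 was found in 1.44% (1.01 to 1.98) of WT and 1.04% (0.810 to 1.31) of KO-labelled cells. Tpx2 was found in 0.639% (0.366 to 1.04) and 0.513% (0.355 to 0.715), so the share intervals overlapped for both genes. Birc5, Ube2c, Cdc20, Cenpe, Cenpf, Aurka, Nusap1 and Kif11, genes of the spindle, its checkpoint and chromosome passage, had log2 ratios from -0.43 to 0.51 with intervals that included 0.

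Of the 3 genes assigned to neither phase, Stmn1, which destabilises microtubules, had 76.5 CPM in WT and 35.2 CPM in KO-labelled cells, a log2 ratio of -1.12 (-1.26 to -0.97). Tubb5, a β-tubulin, stood higher in KO-labelled cells, at 416 against 243 CPM, with a log2 ratio of 0.78 (0.71 to 0.84). Hmgb2, a chromatin protein, had 430 and 426 CPM and was detected in 60.6% of WT cells (65.1% in the KO-labelled library). In cells with myeloid or B cell markers, the WT shares were 54.3% for Hmgb2, 39.1% for Smc4 and 45.7% for Tubb5, close to those of unmarked WT cells (60.8%, 37.4% and 42.0%). In the KO-labelled library the marked cells had lower shares, 51.5%, 45.5% and 56.1%, against 65.3%, 62.8% and 63.8% of unmarked cells. There the intervals were apart for Hmgb2 and Smc4 and overlapped for Tubb5.

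Counted together, 33 members had at least 30 UMIs over both libraries, and 1 of them, Stmn1, was at least 2-fold lower in the KO-labelled library and none was 2-fold higher. Over all 12275 genes with that many UMIs, 7.09% were 2-fold lower and 2.94% were 2-fold higher. The median log2 ratio was -0.08 over the 33 members and 0.02 over all genes, and the intervals lay above 0 for 6 members, below 0 for 7 and included 0 for 20. Over all 12275 genes these counts were 2907, 2988 and 6380.

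**Figure D1:**
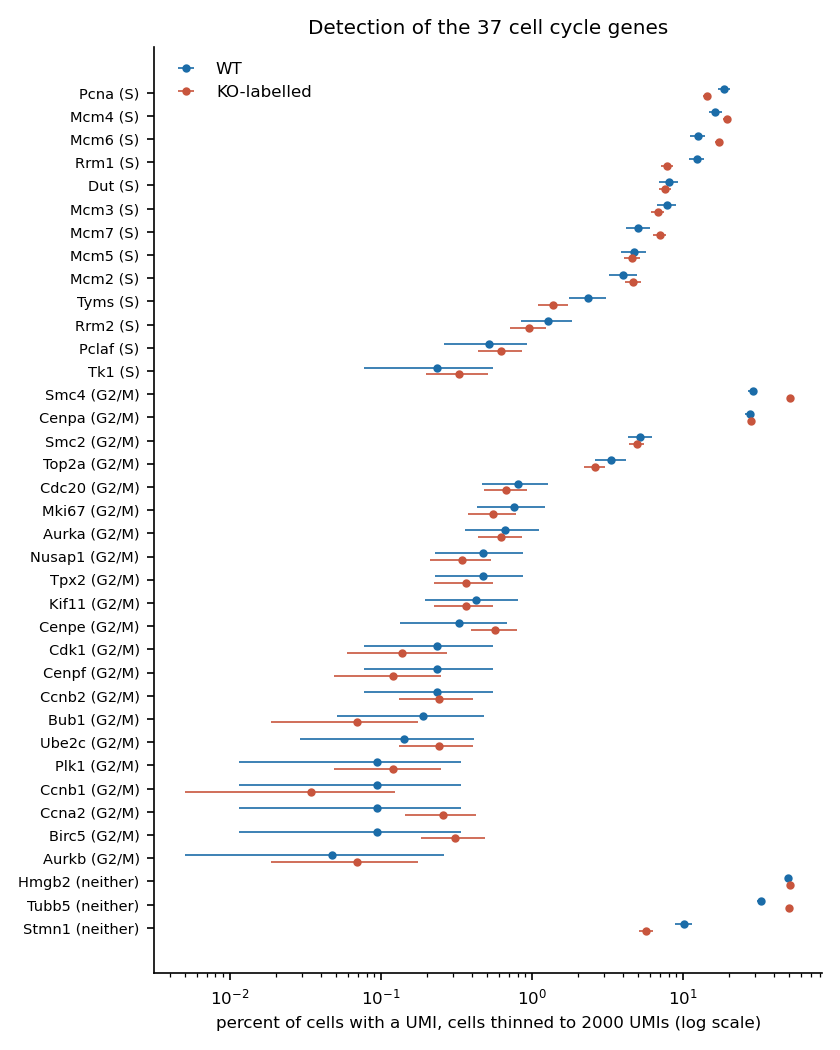
Share of cells (%, 2000 UMIs per cell, bars are exact 95% intervals) in which each of the 37 members was detected, for the WT (n = 2125 cells) and the KO-labelled library (n = 5806 cells), with members ordered by role. Hmgb2, Smc4, Tubb5 and Cenpa were found in more than 27% of cells in both libraries, whereas Mki67 was found in 0.753% and 0.551%.

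Before thinning, the class with at least 4 members made up 48.0% (46.05 to 50.002) of WT and 60.7% (59.6 to 61.9) of KO-labelled cells, and it was deeper than the rest of the cells. Its median was 3933 UMIs against 2769.5 in WT and 4005 against 2830.5 in the KO-labelled library. With each cell drawn down to 2000 UMIs, and 380 WT and 828 KO-labelled cells of lower depth not used, the class held 509 of 2125 WT cells, which is 24% (22.2 to 25.8), while in the other library 1819 of 5806 cells belonged to it, 31.3% (30.1 to 32.5). The log2 ratio of the shares was 0.39 (0.26 to 0.51). At least 4 of 70 other S and G2/M genes, none a member, were present in 63.2% of the WT library against 58.4% of the KO-labelled one, a log2 ratio of -0.11, so the direction depended on which cell cycle genes were counted. Without Stmn1, Hmgb2 and Tubb5 the shares were 7.34% and 8.37%.

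The limit of 4 members cut through the main body of the distribution, with no gap beside it. At equal depth the median cell had 2 members in WT and 3 in KO-labelled cells, and 487 WT and 1531 KO-labelled cells had exactly 3 while 295 and 1073 had exactly 4. The class was filled largely by the broad members, which gave 74.0% and 81.6% of its member UMIs, while the 20 rare members gave 4.37% and 2.999%. In 54.2% of the WT class and 67.6% of the KO-labelled class, 4 or more broad members alone were enough. Leaving the broad members out, 0.753% of WT and 0.947% of KO-labelled cells had at least 4 members at equal depth. In cells with myeloid or B cell markers, the unthinned shares were 41.3% (31.1 to 52.1) in WT and 48.5% (35.99 to 61.1) in the KO-labelled library.

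**Figure D2:**
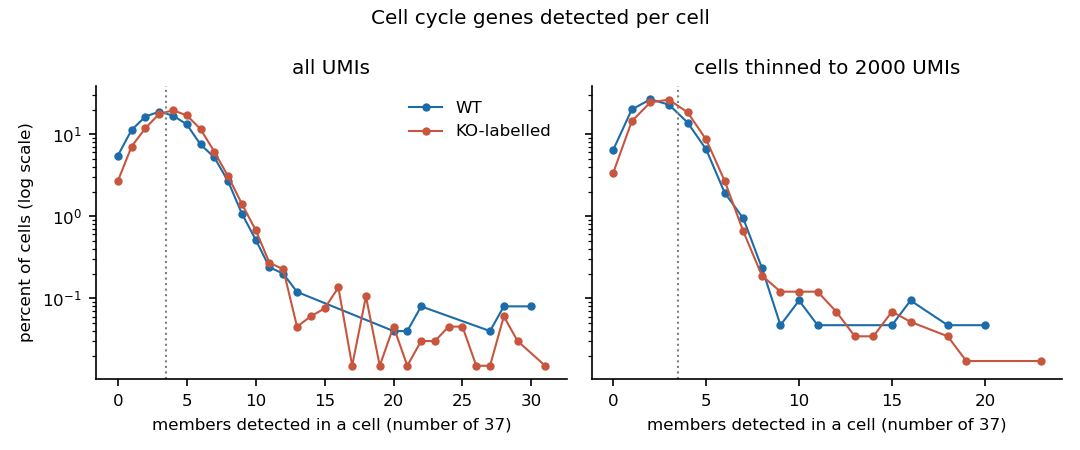
Number of the 37 members detected per cell, as the share of cells (%) in the WT and the KO-labelled library, at full depth and at 2000 UMIs per cell. The distributions have no gap at the limit of 4, and at 2000 UMIs 24% of WT and 31.3% of KO-labelled cells lie at or above it. At full depth no WT cell had from 14 to 19 members, and 9 WT cells lay above that stretch.

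Detection of a member beside the others was then compared, counting for each gene only the other 36 members and cells thinned to 2000 UMIs. Of the 37 members, 24 were found more often in cells with at least 4 other members than in cells with none in both libraries. Smc4 was found in 40.8% (35.7 to 46.1) of WT cells with at least 4 others and in 18.0% (12.5 to 24.6) of those with none, and in 56.1% (53.1 to 59.1) and 43.5% (38.2 to 48.9) of the KO-labelled cells. At this depth it was the only member whose intervals were apart in both libraries. Mcm6 was apart in WT (17.2% against 6.16%), and Mcm4 (21.6% against 12.9%) and Tubb5 (55.0% against 41.7%) in the KO-labelled library. For the remaining 33 members the intervals overlapped in both libraries, Pcna among them (17.9% against 19.4% in WT, 13.6% against 16.9% in KO-labelled cells). Mki67 was found in 10 of 508 WT cells with at least 4 others and in 0 of 137 with none, which allows a share of up to 2.66%. Without thinning, 35 members were found more often beside at least 4 others in both libraries, and the intervals of 14 were apart in both. Before thinning, cells with at least 4 members were deeper than the rest, as given above. The same counts were not made for other genes, so neither 24 nor 35 is read as particular to the members.

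How far S and G2/M transcripts occurred in the same cells depended on Cenpa and Smc4. S genes gave 49.7% (48.6 to 50.8) of the S and G2/M UMIs of the class in WT and 42.5% (41.9 to 43.1) in the KO-labelled library. Cells with UMIs of both phases made up 83.0% and 87.6% of the class, those with S genes alone 12% and 7.10%, and those with G2/M genes alone 4.99% and 5.31%. Without Cenpa and Smc4, S genes gave 84.3% of these UMIs in the WT class, 86.6% in the KO-labelled class, so these 2 genes supplied most G2/M UMIs. Cells with UMIs of both phases were then 30.8% and 24.1% of the class, and those with S genes alone were 64.3% and 70.6%. In cells with fewer than 4 members, S genes gave 47.5% in WT and 32.0% in KO-labelled cells. Without Cenpa and Smc4 these shares were 90% and 88.5%, above those of the class. With all 7 broad members left out, S genes gave 73.4% (WT) and 75.5% (KO-labelled) in the class. In cells with fewer than 4 members they then gave 81.6% and 76.1%. Free RNA can add single UMIs to any cell, and its part in these shares was not tested.

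**Figure D3:**
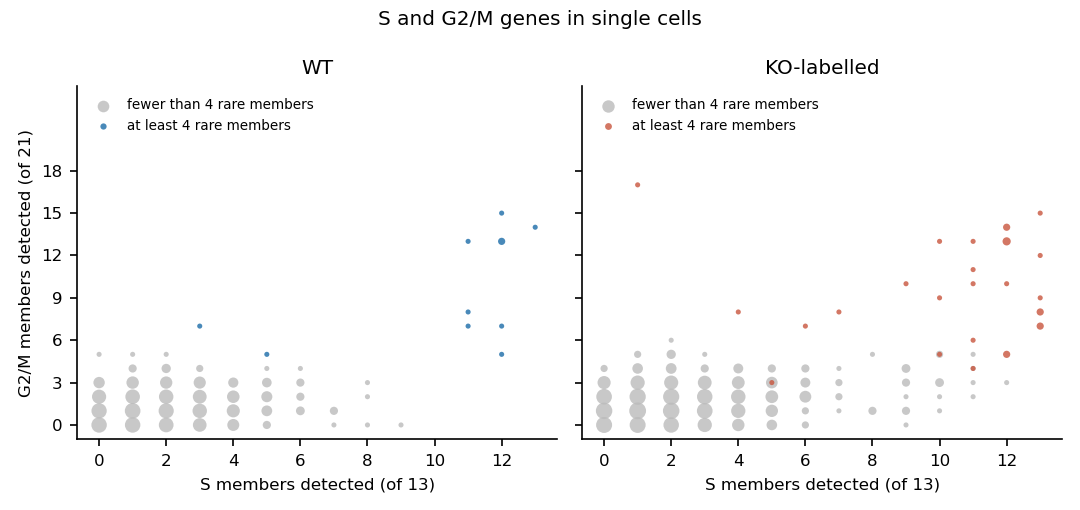
Number of S members (horizontal axis) and G2/M members (vertical axis) detected per cell in each library, unthinned, with dot area scaled to the log2 number of cells and cells with at least 4 rare members marked. Most cells lie below 4 on both axes, and the marked cells, 11 WT and 29 KO-labelled cells, extend to 13 S and 17 G2/M members.

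The chain genes of the class were read in cells with UMIs of only 1 Tcrg-V gene, at 2000 UMIs per cell. In WT, 89 of 483 Tcrg-V6 cells had at least 4 members, 18.4% (15.1 to 22.2), and 83 of 385 Tcrg-V4 cells, 21.6% (17.6 to 26.0). Tcrg-V1 cells, which the sort was meant to remove, had 26 of 79, 32.9% (22.8 to 44.4), and Tcrg-V7 cells had 15 of 31, 48.4% (30.2 to 66.9). The interval of Tcrg-V7 cells was apart from those of Tcrg-V6 and Tcrg-V4 cells, and Tcrg-V1 cells were apart from Tcrg-V6 cells. Tcrg-V5 cells had 6 of 41, 14.6% (5.57 to 29.2). Cells with no Tcrg-V UMI had 26.4% (23.4 to 29.6), so the V6 group also lay below the cells in which no chain was read.

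In the KO-labelled library the Tcrg-V groups lay together. Tcrg-V1 cells had 604 of 2018 cells in the class, 29.9% (27.9 to 32.0). Tcrg-V4 cells had 32.2% (27.1 to 37.6) of 320, Tcrg-V3 cells 36.8% (26.1 to 48.7) of 76, Tcrg-V5 cells 33.3% (16.5 to 54.0) of 27 and cells with no Tcrg-V UMI 32.3% (30.5 to 34.1) of 2597. All of these intervals overlapped.

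Among delta chain genes found alone in at least 25 cells, Trdv4 cells had the lowest share in both libraries, 16.0% (13.3 to 19.1) of 643 cells in WT and 20.3% (12.04 to 30.8) of 79 cells in the KO-labelled library. In WT, Trav15-dv6 cells had 15 of 30 in the class (31.3 to 68.7%) and Trdv2-2 cells 29.1% (23.5 to 35.1) of 251, both with intervals apart from that of Trdv4 cells. Trdv5 cells had 26.2% (21.7 to 31.2) and Trav13-4-dv7 cells 23.6% (18.2 to 29.6). In the KO-labelled library, Trav15-dv6 cells had 32.2% (29.1 to 35.5) of 859, Trdv1 cells 34.1% (30.1 to 38.2), Trdv5 cells 34.4% (29.6 to 39.4), Trdv2-2 cells 29.1% (25.9 to 32.4) and Trav13-4-dv7 cells 23.9% (18.49 to 29.997). There the interval of Trdv4 cells overlapped that of every other delta group named here. When every cell with a UMI of the gene was counted instead, Trdv4 cells had 21% (15.6 to 27.3) of 200, apart from Trav15-dv6 (31.4 to 36.4), Trdv1 (33.6 to 39.9), Trdv5 (32.5 to 39.6) and Trdv2-2 cells (29.9 to 34.8). The name Trav15-dv6 covers near-identical gene copies, whose reads may be divided among them.

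**Figure D4:**
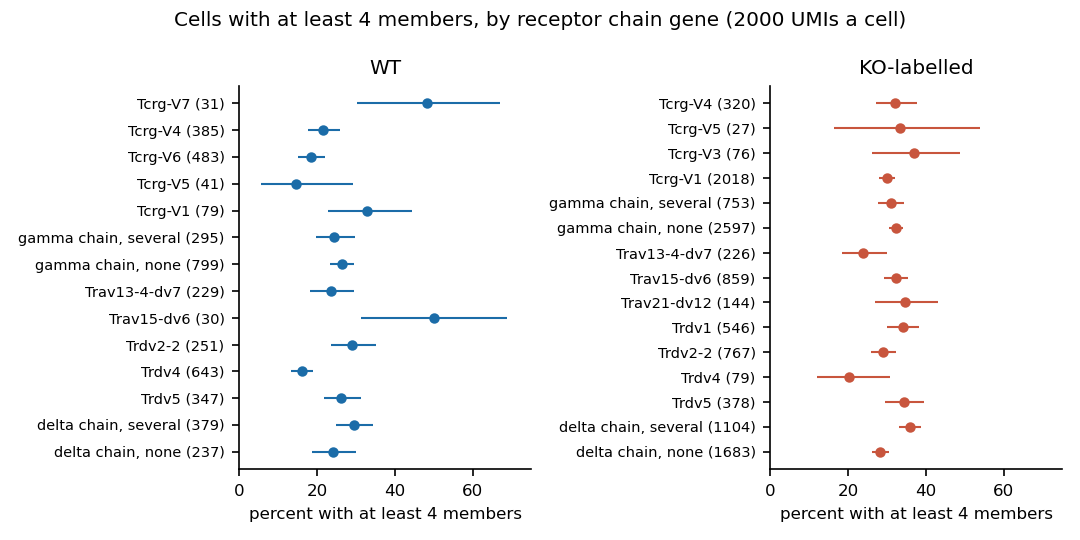
Share of cells (%, 2000 UMIs per cell) with at least 4 members among cells with a single Tcrg-V gene or a single delta chain gene, in groups of at least 25 cells, with exact 95% intervals and the number of cells in brackets. In WT the shares run from 14.6% for Tcrg-V5 to 15 of 30 cells for Trav15-dv6, and in the KO-labelled library from 20.3% for Trdv4 to 36.8% for Tcrg-V3.

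Other genes of the class were compared with those of the remaining cells within each library, in genes with at least 30 UMIs in each library. Of all 9973 such genes, 0.201% were at least 2-fold higher and 0.401% at least 2-fold lower in both libraries. Of 29 other S phase genes, 3 were 2-fold higher in both, namely Clspn (log2 ratios 2.96 in WT and 2.34 in KO-labelled cells), Uhrf1 (2.13 and 1.54) and Hells (1.0 and 1.13), which act at the replication fork and in chromatin upkeep. Their counts were low, with 34, 51 and 73 UMIs in the WT class. In WT none of them reached 30 UMIs outside the class, so they passed that minimum only through it. The median over the 29 was 0.32 for WT and 0.31 for KO-labelled cells. Of 21 other G2/M genes none was 2-fold higher in both, with medians of 0.17 and 0.05. The medians over all genes were -0.003 in both libraries.

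Among the 10 genes outside the lists with the highest ratios, 7 were histone genes, for which no list had been set. Hist1h1b, a linker histone, had 139 UMIs in the class and 11 in the other WT cells, and 235 and 17 in the KO-labelled library, log2 ratios of 3.12 and 2.50. Of these, 125 of the 139 WT UMIs and 147 of the 235 KO-labelled UMIs lay in the cells with at least 4 rare members described below, 11 of them WT and 29 KO-labelled, as did 31 of the 34 WT and 63 of the 99 KO-labelled UMIs of Clspn and all 42 WT UMIs of Hist1h2af. Hist1h2ae (2.31 and 1.42) and Hist1h1d (2.004 and 1.36) were also higher in both, as were Hist1h2af, Hist1h2an, Hist1h2ak and Hist1h2ap. The Hist1h2a genes are near-identical copies that can share reads. Brca1, a DNA repair gene (1.28 and 1.41), Nrgn (2.04 and 1.68) and Gm10143 completed the 10 highest. The lowest were Xkr6 (-1.93 and -2.48), Pard3, Colgalt2, Fstl4 and Hlf (-1.47 and -1.52).

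The gene programs of γδ T cells were not level between the class and the other cells. Over the 9973 other genes, 3558 had log2 ratios below 0 and 3466 above 0 in both libraries. All 18 genes of the IL-17 program were below 0 in both, with medians of -0.62 in WT and -0.80 in KO-labelled cells, and 1 of them, the IL-23 receptor gene Il23r, was 2-fold lower in both (-1.11 and -1.11). At 2000 UMIs per cell, the medians over the 17 genes that remained were -0.85 and -1.16, and 3 of them were 2-fold lower in both. Over all 8494 genes that are no members, 51 were 2-fold lower at that depth, with medians of 0.04 and 0.02. When the class required at least 6 members, 6 of the 18 genes were 2-fold lower in both. No count over all genes was made for that class. Of 11 genes of naive or immature T cells, 10 were above 0 in both libraries, with medians of 0.95 and 0.39, and Dapl1 was 2-fold higher in both (2.04 and 1.04). The cytotoxic and interferon-γ genes went different ways, the median being 0.63 for WT but -0.11 for KO-labelled cells, and none of 16 was 2-fold higher in both. Cell cycle inhibitors and antiproliferative genes had medians of -0.01 and 0.08. Myeloid marker genes summed to 743 CPM in the class and 890 CPM in other cells in WT, and to 207 and 396 CPM in the KO-labelled library.

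Because the class was so broad, cells with at least 4 of the 20 rare members were also described. This limit was set with the values already known. There were 11 such cells of 2505 in WT, 0.439% (0.219 to 0.784), and 29 of 6634 in the KO-labelled library, 0.437% (0.293 to 0.627). The log2 ratio of the shares was -0.01 (-1.01 to 0.99), an interval that leaves room for a 2-fold difference either way. A further 1 WT cell and 3 KO-labelled cells lay at or above the limit of 4000 genes per cell and were left out. The WT cell left out had 683 UMIs of Lyz2, a myeloid gene, and none of Cd3e or of any chain gene. None of the 40 kept cells was marked as myeloid, as B cell or by the doublet caller, although that caller marked no cell at all in the KO-labelled library. The part of doublets in cells of this depth was not tested.

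Cells with at least 4 rare members were large. Their UMI counts ran from 5764 to 15327 with a median of 8352 in WT, and from 2519 to 18210 with a median of 10014 in the KO-labelled library, against medians of 3274 and 3515 in the other cells. For comparison, 59 WT and 111 KO-labelled cells outside the group had at least its median number of UMIs and are called deep cells. Of 34 other S genes that are no member, cells with at least 4 rare members had a median of 18 in WT and 22 in KO-labelled cells, against 6 and 7 in the deep cells and 2 in the other cells of each library. Of 36 other G2/M genes they had 15 and 14, against 7 in the deep cells of each library. At 2000 UMIs per cell they still had a median of 9 other S genes in each library, against 1 in the other cells. The separation by other G2/M genes was weaker at this depth, with medians of 6 (WT) and 5 (KO-labelled) against 2. The group median of other G2/M genes was exceeded by 50 of 2114 remaining WT cells and 360 of 5777 remaining KO-labelled cells. That of other S genes was exceeded by 0 and 3 of these cells.

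With 17 G2/M genes and 3 S genes among the rare members, the choice of these cells itself brings in G2/M members. The median cell had 12 S members in each library, with 8 (WT) or 9 (KO-labelled) G2/M members, and S genes gave 63.9% (60.5 to 67.1) and 61.6% (59.6 to 63.7) of the S and G2/M UMIs. Mki67 and Pclaf, which the choice used, were detected in 10 and 10 of 11 WT cells and in 25 and 27 of 29 KO-labelled cells, and Top2a, which is not a rare member, in 8 and 25. Top2a was found in 15.3% and 16.2% of the deep cells outside the group. KO-labelled cell 4, with 3566 UMIs, was unlike the rest and had 1 S member and 17 G2/M members, and 3 of the other S genes but 17 of the other G2/M genes.

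Transcripts of replication genes were higher in cells with at least 4 rare members. Relative to all other cells, 26 of 29 other S genes and 11 of 21 other G2/M genes were at least 2-fold higher in both libraries, against 4.97% of all genes higher and 10.1% lower. Clspn had 31 UMIs in the 11 WT cells and 6 in the 2494 others, and 63 and 44 in the KO-labelled library, log2 ratios of 8.74 and 7.04. Uhrf1, which copies DNA methylation, had log2 ratios of 5.93 and 6.42, and Cdca8, of the chromosomal passenger complex, 4.37 and 5.33. Hist1h1b stood at 8.69 and 7.01, with 125 of the 150 WT UMIs of the gene lying in the 11 cells. Btg1, an antiproliferative gene, was lower in both (-2.21 and -1.64). Of the 18 genes of the IL-17 program, none was 2-fold higher and 9 were 2-fold lower in both libraries, and Il17a had no UMI in the 40 cells. In these counts a gene without a UMI in the 11 WT cells was called lower there, even where its interval reached above 0.

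**Figure D5:**
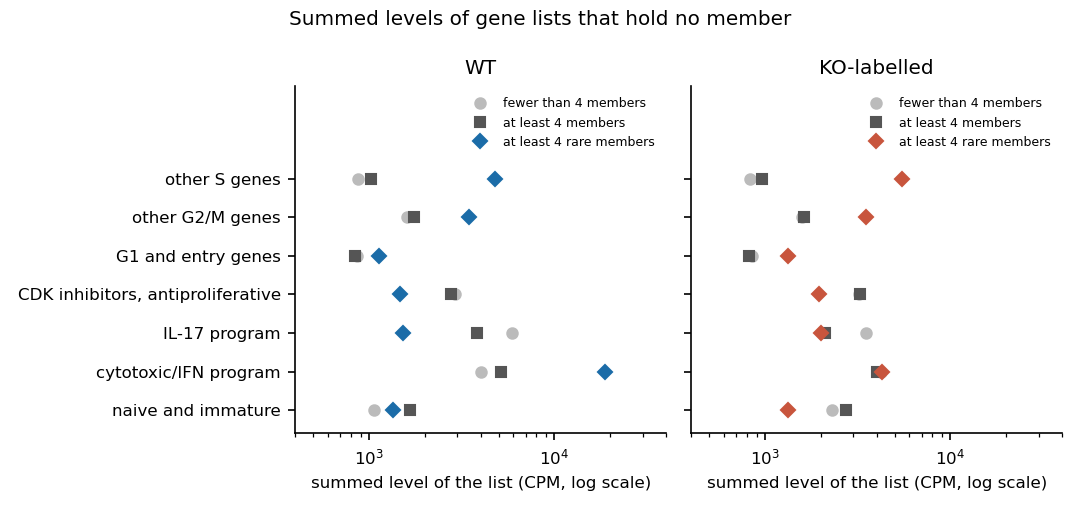
Summed expression (CPM, log axis) of 7 gene lists in cells with fewer than 4 members, with at least 4 members and with at least 4 rare members, in each library. Other S genes sum to 871, 1024 and 4797 CPM in WT, and the cytotoxic list stands at 18803 CPM in the WT cells with at least 4 rare members but 4267 CPM in the KO-labelled ones.

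In WT, the chain genes of the 11 cells were mixed. Tcrg-V7 had a UMI in 5 cells, 45.5% (16.7 to 76.6), against 2.25% of the other cells and 11.9% (4.91 to 22.9) of the deep ones, with overlapping intervals between the group and the deep cells. Trdv2-2 had a UMI in 7 cells, 63.6% (30.8 to 89.1), against 19% of the others and 35.6% (23.6 to 49.1) of the deep ones. The intervals of the group and the deep cells overlapped here too. Tcrg-V4 was found in 3 cells, Tcrg-V1 in 2 and Tcrg-V6 in 1. The interval for Tcrg-V6 (0.230 to 41.3%) held its shares in the other WT cells (30.2%) and the deep ones (35.6%). The WT library was sorted on the absence of Vγ1, a gate that can set its share of Tcrg-V1 cells.

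The same 11 WT cells split by their effector genes. WT cells 1, 2, 4, 5 and 8 all carried Trdv2-2 together with the chemokine gene Ccl5 (92, 223, 263, 161 and 85 UMIs) and Gzma, which encodes granzyme A (90, 170, 97, 214 and 197 UMIs). Nkg7, a cytotoxic granule gene, had 34, 40, 33, 36 and 11 UMIs in them. WT cell 3 instead carried Tcrg-V6 (13 UMIs) with Trdv4 (23 UMIs), Il23r (6 UMIs), Blk (4 UMIs) and Cd163l1 (12 UMIs), and no Ccl5 or Gzma. In the other 5 WT cells, Ccl5 did not exceed 10 UMIs and Gzma did not exceed 1 UMI. Most of the Gzma UMIs of the group (769 in all, a log2 ratio of 5.12 over the other WT cells) therefore came from those Trdv2-2 cells. The whole list of 16 cytotoxic and interferon-γ genes was less uniform in cells with at least 4 rare members. Of the 16, 8 were above 0 in both libraries, 4 below 0 in both and 4 of opposite sign. Over all 9973 genes these counts were 2470, 3975 and 3528. The list medians were 0.30 in WT and 0.77 in KO-labelled cells.

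In the KO-labelled library, 22 of the 29 cells carried Tcrg-V1, 75.9% (56.5 to 89.7), against 43.3% of the other cells and 83.8% of the deep ones. Tcrg-V4 was found in 7 cells and Tcrg-V7 in 2. Trav15-dv6 was found in 14 cells, 48.3% (29.5 to 67.5), against 22.5% of the others and 46.8% of the deep ones, Trdv2-2 in 9, Trdv5 in 6 and Trdv4 in none, which allows a share of up to 11.9%. Ccl5 was present in 11 of the 29 cells and Gzma in 4. At least 50 UMIs of Ccl5 were present in 4 cells, of which 1 carried Trdv2-2. The shares of Tcrg-V1 and Trav15-dv6 in the deep cells thus lay inside the intervals of the group. Trdv1 was found in 2 of the 29 cells, 6.90% (0.846 to 22.8), against 14.7% of the other cells and 32.4% (23.9 to 41.97) of the deep cells. The interval of the group held the share of the other cells and was apart from that of the deep cells. Gzmb, granzyme B, was found in 10 of 29 cells, 34.5% (17.9 to 54.3), against 12.6% (7.07 to 20.3) of the deep cells, with overlapping intervals. In WT it was found in 7 of 11 cells (30.8 to 89.1%), against 15.3% (7.22 to 26.99) of the deep cells, with intervals apart.

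Some cells were rich in S members with few rare members, a group likewise set with the values known. At least 8 of the 13 S members but fewer than 4 rare members were found in 4 WT cells, 0.160% (0.0435 to 0.408), and in 29 KO-labelled cells, 0.437% (0.293 to 0.627). They had a median of 14 other S genes in each library and 6.5 and 8 other G2/M genes, and Mki67 was detected in 1 of the 4 and 3 of the 29. The deep cells named above, from which this group was not taken out, had medians of 6 and 7 other S genes and 7 other G2/M genes. Tcrg-V1 was carried by 24 of the 29 KO-labelled cells and Tcrg-V4 by 12, at a median of 9934 UMIs per cell. In the deep KO-labelled cells the shares were 83.8% for Tcrg-V1 and 40.5% for Tcrg-V4. Cells with either pattern came to 15 in WT, 0.599% (0.336 to 0.986), and 58 in the KO-labelled library, 0.874% (0.665 to 1.13), with overlapping intervals.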

How the data were processed

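Single γδ T cells sorted from mouse lungs were measured by droplet single-cell RNA sequencing, 1 library per group. The deposited matrices hold raw counts, the UMI counts per gene and cell that the authors made with Cell Ranger 7.0 (7.0.0 in the file header) against mm10. The study's methods name another release of that program. The labels name a 3′ protocol and the methods a V(D)J kit, which reads the 5′ end. Whether intronic or antisense reads were counted was not given in the sources used here.

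Cells with more than 200 and fewer than 4000 genes and under 10% mitochondrial UMIs were kept, the limits of the study, leaving 2505 of 2520 WT and 6634 of 6688 KO-labelled barcodes. Doublets were not removed. Scrublet (scanpy 1.11.5) marked 191 WT cells and 0 KO-labelled cells, and whether it missed doublets in the latter was not tested. Shares were computed after drawing each cell down to 2000 UMIs (numpy 2.4.6, seed 0) and are given with exact Clopper-Pearson intervals. Ratios of CPM have exact conditional intervals and the ratio of shares has a log-normal interval (scipy 1.17.1). The interval code was tested on simulated counts. With 1 library per group significance was not tested. A gene was counted as higher or lower at 2-fold, with at least 30 UMIs.

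All 37 members were named. Of other lists, the genes past 2-fold in both libraries were named, at most 3 in each direction, and outside the lists the 10 highest and 5 lowest by the smaller of the ratios. Genes named outside this rule (Cdca8, Ccl5, Nkg7, Gzma, Gzmb, Il17a, Blk, Cd163l1 and Lyz2), the cells with at least 4 rare members and those with at least 8 S members were chosen after their values were seen. The members and lists were chosen with earlier results of these data known. Alternatives comprised other limits on members, other depths, other gene lists and filters.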

Additional observations from a re-analysis of the deposited data

Results flagged for a closer look

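For 8 genes of the fixed lists, cells with at least 4 members over the other cells gave log2 ratios of opposite sign in the WT and the KO-labelled library, with intervals on opposite sides of 0. The difference between the libraries was not tested. Among cytotoxic and interferon-γ genes, Ifng stood at 0.45 in WT and -0.84 in KO-labelled cells, Ccl5 at 0.33 and -0.14, Ly6c2 at 0.92 and -0.17, and Klrc1 at 0.41 and -0.60. Cd247, which encodes the CD3 zeta chain, stood at -0.22 and 0.083. The myeloid genes Chil3 (0.36 and -4.42) and Cd14 (0.87 and -1.06) and the airway epithelial gene Scgb1a1 (-9.88 and 1.24) also had opposite signs. Scgb1a1 had 5 UMIs in the class and 3243 in the other WT cells, and Chil3 had 21 UMIs in the class and 184 in the other KO-labelled cells.

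Cells left out by the limit of 4000 genes carried many members. At least 10 members were detected in 7 of 12 such WT cells, 58.3% (27.7 to 84.8), and in 19 of 31 KO-labelled cells, 61.3% (42.2 to 78.1). Cells chosen for many genes detect more of any gene list, so these shares are given as values only. The part of depth and of doublets in these cells was not tested.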

How the results depend on the processing

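No paired analysis was possible because the design has 1 library for each group, and for the same reason no replicate could be left out. The log2 ratio of the shares of cells with at least 4 members (0.39) moved to 0.26 at 6 or more members and to 0.19 without Stmn1, Hmgb2 and Tubb5, where its interval included 0 (-0.11 to 0.62 and -0.06 to 0.44), and turned to -0.11 with the other S and G2/M lists, while under 11 other settings it moved by less than its interval, although without the members in 20% or more of cells the interval also included 0 (0.33, -0.47 to 1.13). The S share of S and G2/M UMIs (49.7% in WT, 42.5% in KO-labelled cells) was 37% and 37.4% with the other lists, 30.8% and 26.3% with those 3 genes counted as G2/M, and 63.9% and 61.6% in cells with at least 4 rare members. The KO-labelled value was also 46.2% at 6 or more members and 44.2% at 2000 UMIs. At 6 or more members and without thinning, the class held 3.11% and 45.8% of WT Tcrg-V6 cells, 2.08% and 53.9% of WT Tcrg-V4 cells, and 4.11% and 66.7% of KO-labelled Tcrg-V1 cells. Members past the fold limit between libraries (1) became 7 at 1.5-fold, 2 with the mean of scaled cells and 3 of 17 in cells with fewer than 4 members. IL-17 genes 2-fold lower in both (1 of 18) were 6 at 6 or more members and 3 of 17 at 2000 UMIs. Of 8494 genes that are no members, 51 were 2-fold lower and 3 were 2-fold higher in both at 2000 UMIs. No such count was made at 6 or more members. Genes 2-fold higher in both libraries at 6 or more members were 5 other S, 1 other G2/M and 0 naive genes. At 2000 UMIs they were 1 other S and 0 naive genes, and in cells with at least 4 rare members 26 other S, 11 other G2/M, 0 naive and 3 cytotoxic genes. The shares of cells with at least 4 rare members at 2000 UMIs were 0.235% (WT) and 0.276% (KO-labelled). The cause of these shifts was not tested, but thinning and the higher limit leave fewer members per cell by construction. Over all results and settings, 103 values stayed within their limits, 49 moved and 1 reversed.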

Other observations

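Further gene lists were compared between cells with at least 4 members and the other cells, and the genes named here were chosen after their values were seen. Of 11 T cell activation genes, 7 had log2 ratios below 0 in both libraries, as had 3558 of 9973 genes that are no members, with medians of -0.33 in WT and -0.34 in KO-labelled cells. Il2ra, the high-affinity IL-2 receptor chain, stood at -0.64 and -1.06, while Pdcd1, which encodes PD-1, stood at 0.14 and 0.45. Cdkn1a, which encodes the p21 inhibitor of cyclin-dependent kinases, stood at -0.73 and -1.02, with 1576 UMIs in the class and 1791 in the other WT cells. Cdkn2d, another inhibitor of these kinases, stood at 0.56 and 0.33. Genes of entry into the cycle from G1 had medians of -0.09 and -0.03 over 15 genes. Shared γδ T cell genes had medians of -0.08 and 0.04 over 10 genes, and αβ T cell genes had 0.57 and 0.43 over 3 genes.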
